A study of Mus musculus with 16 samples.

Results

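The 78 genes described here encode the mitochondrial ribosomal proteins of the mouse, taken as every gene whose symbol is Mrpl or Mrps followed by a number and at most 1 letter. They were 78 of the 54347 genes in the count table of a gain-of-function experiment on the lncRNA *Gm15551*, and all 78 were among the 13150 genes that passed the filter on low counts. The cells were wt1-SAM brown adipocytes, an immortalized preadipocyte line with a stable copy of the SAM system for CRISPR activation (a dead Cas9 and guide-bound activators that raise transcription where a guide binds). Every culture was reverse transfected with 250 ng plasmid on day 4 of differentiation and harvested on day 7. The plasmid was either the empty guide vector (empty) or the guide plasmids titled pSgRNA-MS2-2+7 that target *Gm15551* (sgRNA). The cells were either left as controls (ctrl) or stimulated for the last 24 h with 1 µM isoproterenol (iso), a β-adrenergic agonist that mimics cold. This gave 4 groups, empty ctrl, empty iso, sgRNA ctrl and sgRNA iso, of 4 libraries each, numbered replicate 3 to 6 in every group. All groups shared the cell line, the SAM system and the transfection, so the data speak for 1 line. No label says that the replicates were separate cultures, and the p-values measure the spread between these libraries only.

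The mitochondrial ribosome translates the mRNAs of the mitochondrial genome, all of which encode core subunits of the respiratory chain and ATP synthase. Its proteins are encoded in the nucleus, made in the cytosol and imported, and they assemble with mitochondrial rRNAs into a small subunit, which reads the mRNA, and a large subunit, which forms the peptide bonds. Many of the proteins have a counterpart in the bacterial ribosome and others occur only in mitochondria. Brown adipocytes are rich in mitochondria, and their heat production runs on the respiratory chain that this ribosome helps to build.

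By background knowledge of the ribosome's structure, 51 of the 78 genes encode proteins of the large subunit and 26 of the small subunit. The large subunit set includes *Mrps30* and *Mrps18a*, whose products sit there despite their symbols. The product of *Mrps36* is a component of the α-ketoglutarate dehydrogenase complex rather than of the ribosome, and it was kept because the rule is the symbol. Of the proteins, 46 have a bacterial homolog and 31 are specific to mitochondria.

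The libraries held 9053521 to 16546187 counts, and levels are given as CPM, counts scaled to a common library size. The 78 genes took 34978 to 95675 counts per library, and a single gene 15 to 4910 counts (median 657.5). One ribosomal RNA gene took 11.7% to 51.8% of a library, with over 40% in empty ctrl 5, empty iso 3 and empty iso 5, and its mean share was higher in empty cells (29.0% ± 12.8 in ctrl and 36.8% ± 12.8 in iso, SD, n = 4) than in sgRNA cells (19.1% ± 1.11 and 21.1% ± 7.18). As a check of the labels, *Gm15551* was higher with sgRNA in all 8 pairs of equal treatment and replicate number, at means of 0.952 against 2.97 CPM without and 0.147 against 1.56 CPM with isoproterenol (log2 fold change 2.37, adjusted p = 0.0989 by the quasi-likelihood F test of edgeR, Benjamini-Hochberg over all genes; 2.41, adjusted p = 0.000550 with replicate number in the model). *Ucp1*, the uncoupling protein of brown fat, was higher with isoproterenol in all 8 pairs (log2 fold change 4.03, adjusted p = 7.36e-06 by the same edgeR test). The means of *Ucp1* were low, at 0.350 against 6.42 CPM in empty and 0.548 against 9.35 CPM in sgRNA cells. Among cell type markers, 10 of 10 adipocyte and 7 of 8 brown adipocyte genes passed the filter on low counts, against 3 of 6 for preadipocytes, 1 of 5 for macrophages, 1 of 3 for endothelium and 1 of 5 for skeletal muscle. Of the brown adipocyte genes that passed, *Cidea* lay at 0.657 to 18.8 CPM, and *Prdm16*, *Cox8b* and *Cox7a1* at 2.17 CPM at most.

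The mRNAs of the mitochondrial ribosome were well expressed in every group. Per kilobase of exons, 77 of the 78 genes lay above the median of the 11447 protein-coding genes tested (22.2 against 4.00 CPM per kb as medians). The large subunit genes had a median of 23.5 and the small subunit genes of 18.3 CPM per kb. The highest level was that of *Mrps6*, a small subunit protein with a bacterial homolog, at 180 ± 23.9 CPM per kb in empty ctrl, 133 ± 23.8 in empty iso, 163 ± 21.3 in sgRNA ctrl and 136 ± 15.2 in sgRNA iso (SD, n = 4). It was followed by *Mrpl12*, whose product also binds the mitochondrial RNA polymerase, at 124 CPM per kb over all libraries, *Mrpl34* at 112, *Mrpl18* at 107 and *Mrps21* at 83.5. The lowest levels were those of *Mrpl23* at 0.636 CPM per kb, *Mrpl48* at 4.68, *Mrps30* at 5.01, *Mrps35* at 5.22 and *Mrps5* at 5.79. *Mrpl23* stood apart from the rest and was the only gene below the protein-coding median. Named pseudogenes are annotated for *Mrpl23*, *Mrpl48* and *Mrps36*, and 33 of the 78 genes share exon bases with another gene, 8 of them on the same strand and 28 on the opposite strand. Reads of such stretches could have been divided between genes in the estimated counts, so these levels are uncertain.

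**Figure D1:**
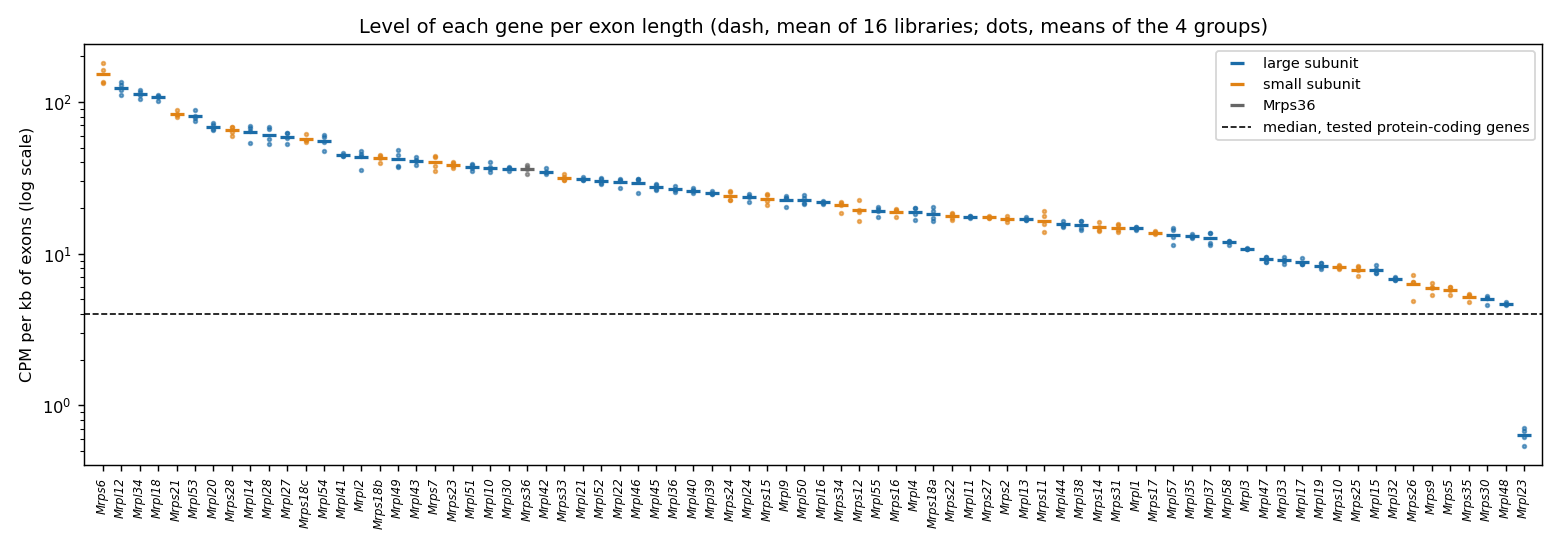
Level of each of the 78 genes in CPM per kilobase of exons (log axis), with a dash at the mean of the 16 libraries, dots at the means of the 4 groups and a dashed line at the median of the tested protein-coding genes. Levels ran from 153 for *Mrps6* to 0.636 for *Mrpl23*. On this log axis the 4 group means of a gene differ little beside the range between genes. Those of *Mrps26* ran from 4.88 in empty iso to 7.18 in sgRNA ctrl.

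Some of these genes have features of their start regions in common that the symbol rule did not use. A protein-coding gene on the other strand starts head to head within 500 bases for 25 of the 78 genes (32.1%), against 14.9% of the tested protein-coding genes. RefSeq start windows (GRCm38.p6, 250 bases before to 50 bases after the start) were found for 69 of the 78 genes. They were searched on both strands for the exact letters of sites known from genes of mitochondrial biogenesis. The letters AAGATGGC, the core of the site of YY1, a zinc finger factor with sites at many such promoters, were found for 12 genes (17.4% of those with a window, against 5.57% of all tested genes with a window). The letters CCGGAAGT, bound by ETS factors such as GABP, were also found for 12 (17.4% against 9.86%), and the palindrome of NRF1 (GCGCA followed by its reverse complement) for 3 (4.35% against 2.45%). The cAMP response element TGACGTCA, the site of the factors that β-adrenergic signalling activates, was found for 2 genes, *Mrpl16* and *Mrpl49* (2.90% against 3.72%), and TCAAGGTCA, a site of the oestrogen-related receptors, for none (0.255% of tested genes). These are letter matches, and binding was not measured.

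The YY1 letters are shown because of their position: in 8 of the 12 genes they lie on the coding strand 11 to 36 bases after the start site, and in 6 of these 8 (*Mrpl35*, *Mrpl49*, *Mrps18a*, *Mrps24*, *Mrps27* and *Mrps7*) the ATG inside them is the annotated start codon. The sites follow 5′ to 3′ on the coding strand, with the matched letters in capitals (RefSeq, GRCm38.p6):
Mrpl49, chr19:6057721-6057750, minus strand: gttgaggcgccAAGATGGCagcagcggtgt
Mrps7, chr11:115604147-115604176, plus strand: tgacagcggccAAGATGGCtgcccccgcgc
Mrps18a, chr17:46111004-46111033, plus strand: aggtgcgttccAAGATGGCggccctcaggg
Mrpl37, chr4:107066822-107066851, minus strand: ctgcacgggcaAAGATGGCggcgtccaggt
Mrpl35, chr6:71823743-71823772, minus strand: aggcaggctgcAAGATGGCggcttccatct
Mrpl42, chr10:95501904-95501933, minus strand: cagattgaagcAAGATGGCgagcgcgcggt
Mrps24, chr11:5707652-5707676, minus strand: cgcgccggcccAAGATGGCgtggtc
Mrps27, chr13:99344789-99344818, plus strand: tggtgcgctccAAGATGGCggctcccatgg
The first 4 belong to genes among the 9 of 78 that were called lower with isoproterenol in the comparison described next, *Mrpl49* in both models and the others only with the replicate number in the model. The other 4 belong to genes that did not pass that test. Of all 12 genes with the letters 5 were among the 9, the fifth being *Mrps11*, and 8 of the 9 had a start window. In that model 10.4% of all tested genes were called lower, with or without the letters. The share among tested genes that carry the letters was not computed. Whether the letters go with a lower level was therefore not tested.

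A pair of head-to-head stretches between start sites is shown because its genes recur in the results. *Mrpl49* starts opposite *Fau*, a ribosomal protein gene of the cytosolic ribosome, with 191 bases between the RefSeq starts (72.3% GC), and *Mrps11* starts opposite *Mrpl46*, another gene of the set, with 41 bases between the RefSeq starts (73.2% GC), whereas by the GENCODE annotation, which gives the head-to-head counts and the shared exon bases, the 2 genes overlap at their starts. Both stretches are given on the strand of the gene named first, and the capitals mark the cAMP response element.
Mrpl49 to Fau, chr19:6057756-6057946, minus strand: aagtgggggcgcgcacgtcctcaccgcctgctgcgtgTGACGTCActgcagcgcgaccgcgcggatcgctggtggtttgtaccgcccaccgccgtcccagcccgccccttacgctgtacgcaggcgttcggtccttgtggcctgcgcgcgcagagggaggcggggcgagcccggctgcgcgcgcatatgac
Mrps11 to Mrpl46, chr7:78783090-78783130, plus strand: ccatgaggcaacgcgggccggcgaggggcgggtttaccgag
The stretch between *Mrpl49* and *Fau* holds the response element, and the shorter one holds none of the searched letters.

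The first comparison asked how β-adrenergic stimulation changed the mRNAs of the mitochondrial ribosome. Where genes passed the test, they were lower with isoproterenol. Averaged over plasmids, 1 of the 78 genes was called lower and 0 higher (adjusted p under 0.05, edgeR quasi-likelihood test, Benjamini-Hochberg over all 13150 genes), against 2.43% of all tested genes called lower and 2.06% higher. With the replicate number in the model, 9 genes were called lower and 0 higher, against 10.4% lower and 10.9% higher over all genes. The share of 9 in 78 called lower, 11.5%, is near that background. At an unadjusted p under 0.05, 7 genes passed (17.7% of all tested genes), and 30 with replicate number (33.5%), and a DESeq2 Wald test called 2 lower, against 3.76% of all genes, and 0 higher. No gene both passed the test and exceeded a log2 fold change of 0.5 in size (2.65% of all tested genes, and 5.70% with replicate number). The log2 fold changes ran from -0.35 to 0.16, with a median of -0.055 over the 78 genes and 0.005 over all tested genes, and 56 of the 78 were negative. Of the calls with replicate number, 5 fell among the 51 large subunit genes (median log2 fold change -0.037) and 4 among the 26 small subunit genes (median -0.11).

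*Mrpl49* (ENSMUSG00000007338, chr19:6053622-6057785, minus strand, GRCm38) encodes a large subunit protein specific to mitochondria and was called in both models. In empty cells its levels in replicates 3 to 6 were 96.5, 84.3, 94.8 and 83.4 CPM in ctrl and 73.8, 71.7, 72.8 and 65.9 CPM in iso. In sgRNA cells they were 84.6, 80.7, 89.9 and 82.5 CPM in ctrl and 73.8, 70.8, 69.0 and 66.7 CPM in iso. All 8 stimulated libraries lay below all 8 control libraries. The log2 fold change was -0.30 (SE 0.054, adjusted p = 0.00367 in edgeR; SE 0.040, adjusted p = 6.65e-05 with replicate number), or 0.812-fold of the control level. The call in the model without replicate number was lost when all 4 libraries of replicate 3 were left out. *Mrpl49* carries both the response element and the YY1 letters shown above. The log2 fold change of its head-to-head neighbour *Fau* was 0.13 (adjusted p = 0.284, edgeR with replicate number), and that of *Syvn1*, with which it shares 91 exon bases on the opposite strand, was -0.11 (adjusted p = 0.436).

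*Mrps6* (ENSMUSG00000039680, chr16:92058270-92112227, plus strand), the most abundant of the 78 per kilobase, was called by edgeR with the replicate number in the model and not without it. Its levels in replicates 3 to 6 were 295, 301, 286 and 222 CPM in empty ctrl and 247, 218, 191 and 162 CPM in empty iso. In sgRNA cells they were 283, 273, 219 and 225 CPM in ctrl and 239, 213, 194 and 186 CPM in iso. Every stimulated library lay below its control of the same number, while the 2 treatments overlapped across numbers. The log2 fold change was -0.35 (SE 0.10, adjusted p = 0.0611 in edgeR; SE 0.050, adjusted p = 0.000124 with replicate number), or 0.783-fold. *Mrps6* shares 159 exon bases on its own strand with *Slc5a3*, a sodium-coupled inositol transporter gene at a mean of 197 CPM, whose log2 fold change was 0.08 (adjusted p = 0.463, edgeR with replicate number).

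The other small subunit genes called lower with replicate number, none of them called without it, were *Mrps11*, *Mrps7* and *Mrps15*, which all have bacterial homologs. *Mrps11* was at 46.9, 42.1, 48.8 and 27.2 CPM in empty ctrl, 29.4, 36.2, 32.4 and 22.2 in empty iso, 41.0, 35.4, 41.3 and 35.3 in sgRNA ctrl and 35.1, 38.6, 37.0 and 24.8 in sgRNA iso. The stimulated library was the lower one in 7 of 8 pairs, the exception being sgRNA replicate 4, and the log2 fold change was -0.32 (adjusted p = 0.216 in edgeR, 0.00682 with replicate number). *Mrps11* shares 173 exon bases on the opposite strand with *Mrpl46*, whose log2 fold change was -0.15 (adjusted p = 0.101 with replicate number). *Mrps7*, a protein of the head of the small subunit, was at 110, 89.5, 97.8 and 69.0 CPM in empty ctrl, 72.8, 77.5, 82.1 and 59.2 in empty iso, 98.6, 84.0, 90.6 and 83.4 in sgRNA ctrl and 93.2, 85.4, 81.0 and 55.4 in sgRNA iso. It too was lower in 7 pairs with the same exception (log2 fold change -0.26, adjusted p = 0.252 in edgeR, 0.00917 with replicate number). It shares 127 exon bases on the opposite strand with *Gga3* (log2 fold change 0.04, adjusted p = 0.832 with replicate number) and 119 with *Mif4gd*, which was also called lower (-0.36, adjusted p = 0.00705 with replicate number). The strand setting of the counting is not given in the sources used here, so reads of those bases cannot be assigned to 1 of the genes. *Mrps15* was at 46.0, 44.9, 40.6 and 32.2 CPM in empty ctrl, 35.4, 42.8, 32.1 and 30.5 in empty iso, 42.0, 45.8, 40.8 and 38.1 in sgRNA ctrl and 38.1, 45.6, 36.8 and 30.6 in sgRNA iso. It was lower in all 8 pairs, by little in sgRNA replicate 4 (log2 fold change -0.18, adjusted p = 0.380 in edgeR, 0.0210 with replicate number). The call of *Mrps15* with replicate number was lost without replicate 3, 5 or 6, and that of *Mrps11* without replicate 3.

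The remaining large subunit genes called lower with replicate number were *Mrpl28*, *Mrps18a*, *Mrpl37* and *Mrpl38*. *Mrpl28*, which has a bacterial homolog, was at 109, 99.4, 98.2 and 68.3 CPM in empty ctrl, 64.7, 86.6, 77.4 and 61.9 in empty iso, 97.5, 89.0, 92.1 and 87.6 in sgRNA ctrl and 85.1, 84.6, 79.5 and 65.3 in sgRNA iso. All 8 pairs were lower with isoproterenol, and of the control libraries empty replicate 6 alone overlapped the stimulated ones (log2 fold change -0.29, adjusted p = 0.112 in edgeR, 0.00540 with replicate number). *Mrps18a* was at 79.8, 66.5, 92.1 and 61.6 CPM in empty ctrl, 63.0, 59.5, 69.9 and 50.9 in empty iso, 78.0, 67.1, 70.4 and 66.5 in sgRNA ctrl and 67.4, 62.7, 71.3 and 50.8 in sgRNA iso. It was lower in 7 of 8 pairs, with sgRNA replicate 5 the exception (log2 fold change -0.23, adjusted p = 0.216 in edgeR, 0.00567 with replicate number). *Mrpl37*, a protein specific to mitochondria, was at 67.0, 63.0, 70.8 and 41.8 CPM in empty ctrl, 49.1, 50.6, 62.5 and 42.6 in empty iso, 64.9, 58.2, 66.4 and 54.2 in sgRNA ctrl and 58.7, 49.3, 56.9 and 44.3 in sgRNA iso. It was lower in every pair but empty replicate 6 (log2 fold change -0.23, adjusted p = 0.277 in edgeR, 0.0110 with replicate number), and its head-to-head neighbour *Cyb5rl* was also called lower (-0.45, adjusted p = 0.000367 with replicate number). *Mrpl38*, also specific to mitochondria, was lower in every pair but empty replicate 5, with 30.9 to 48.3 CPM in control and 27.3 to 43.5 CPM in stimulated libraries (log2 fold change -0.19, adjusted p = 0.450 in edgeR, 0.0450 with replicate number). The call of *Mrpl38* with replicate number was lost whichever replicate number was left out, and that of *Mrpl37* without replicate 3 or 4.

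**Figure D2:**
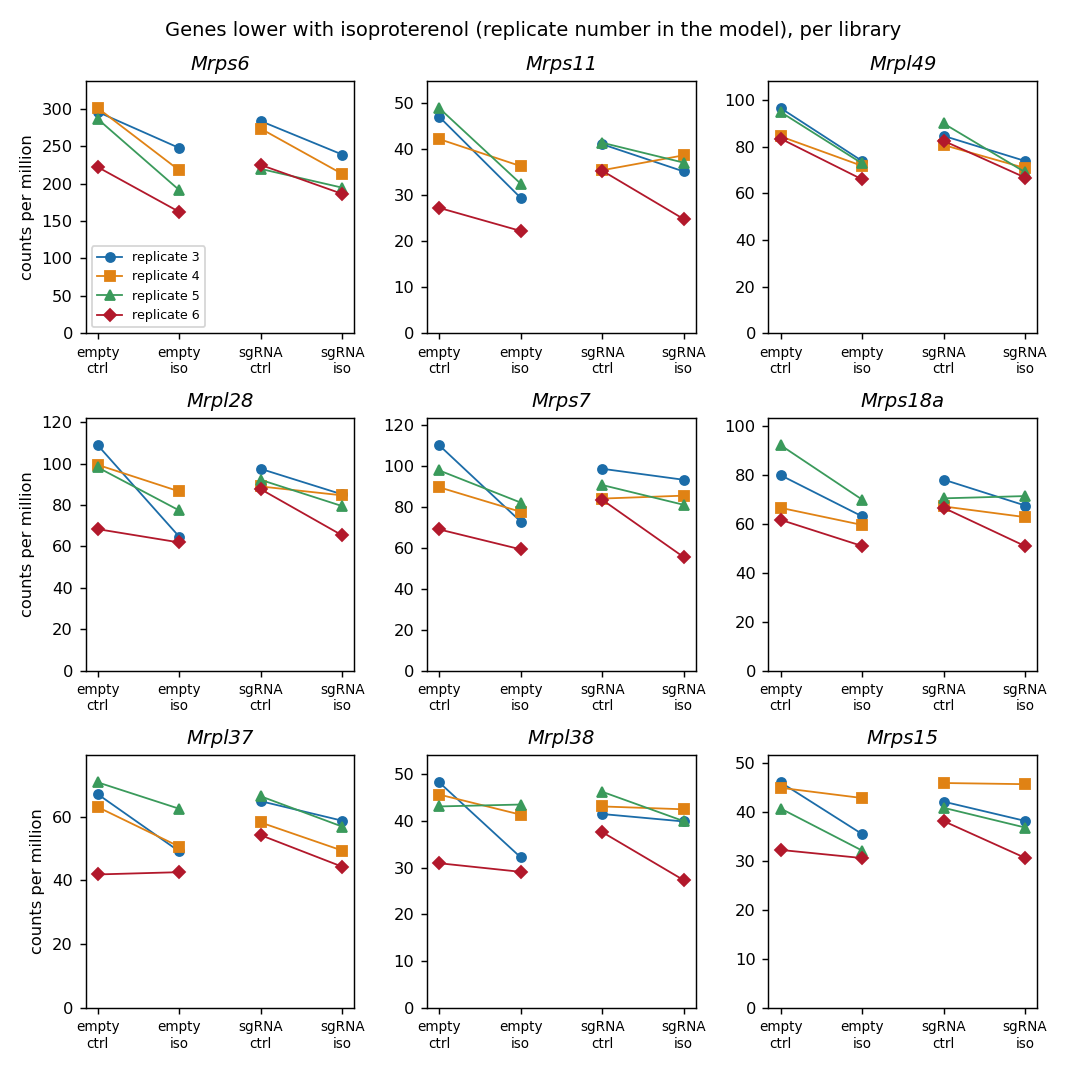
CPM per library of the 9 genes called lower with isoproterenol when replicate number was in the model, by group, with a line joining the control and the stimulated library of each replicate number. *Mrpl49*, *Mrps6*, *Mrpl28* and *Mrps15* fell in all 8 pairs, and the other 5 in 7 of 8.

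Being lower in all 8 pairs was shared by 4 of the 78 genes, against 7.67% of all tested genes, and 0 were higher in all 8 pairs, against 8.16%. The largest positive log2 fold changes, none of which passed the test in either model, were those of *Mrpl50* (0.16), *Mrpl15* (0.14), *Mrps31* (0.13), *Mrpl55* (0.12) and *Mrps36* (0.12). *Mrpl50* had the lowest adjusted p of these, 0.0700 in edgeR with replicate number. Among the falls that missed the test, *Mrps26* was at -0.28 on the log2 scale (adjusted p = 0.0825 with replicate number) and *Mrps12*, the decoding-centre protein of the small subunit, at -0.25 (adjusted p = 0.0525 with replicate number). *Mrps12* starts head to head with *Sars2*, which charges mitochondrial serine tRNA and was at -0.23 (adjusted p = 0.161 with replicate number). *Mrpl12* was at -0.20 (adjusted p = 0.133 with replicate number). The 3 related genes *Mrps18a*, *Mrps18b* and *Mrps18c* had log2 fold changes of -0.23, 0.07 and -0.08, and *Mrps18a* alone was called. *Mrps30* was at -0.10 (adjusted p = 0.231 with replicate number).

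**Figure D3:**
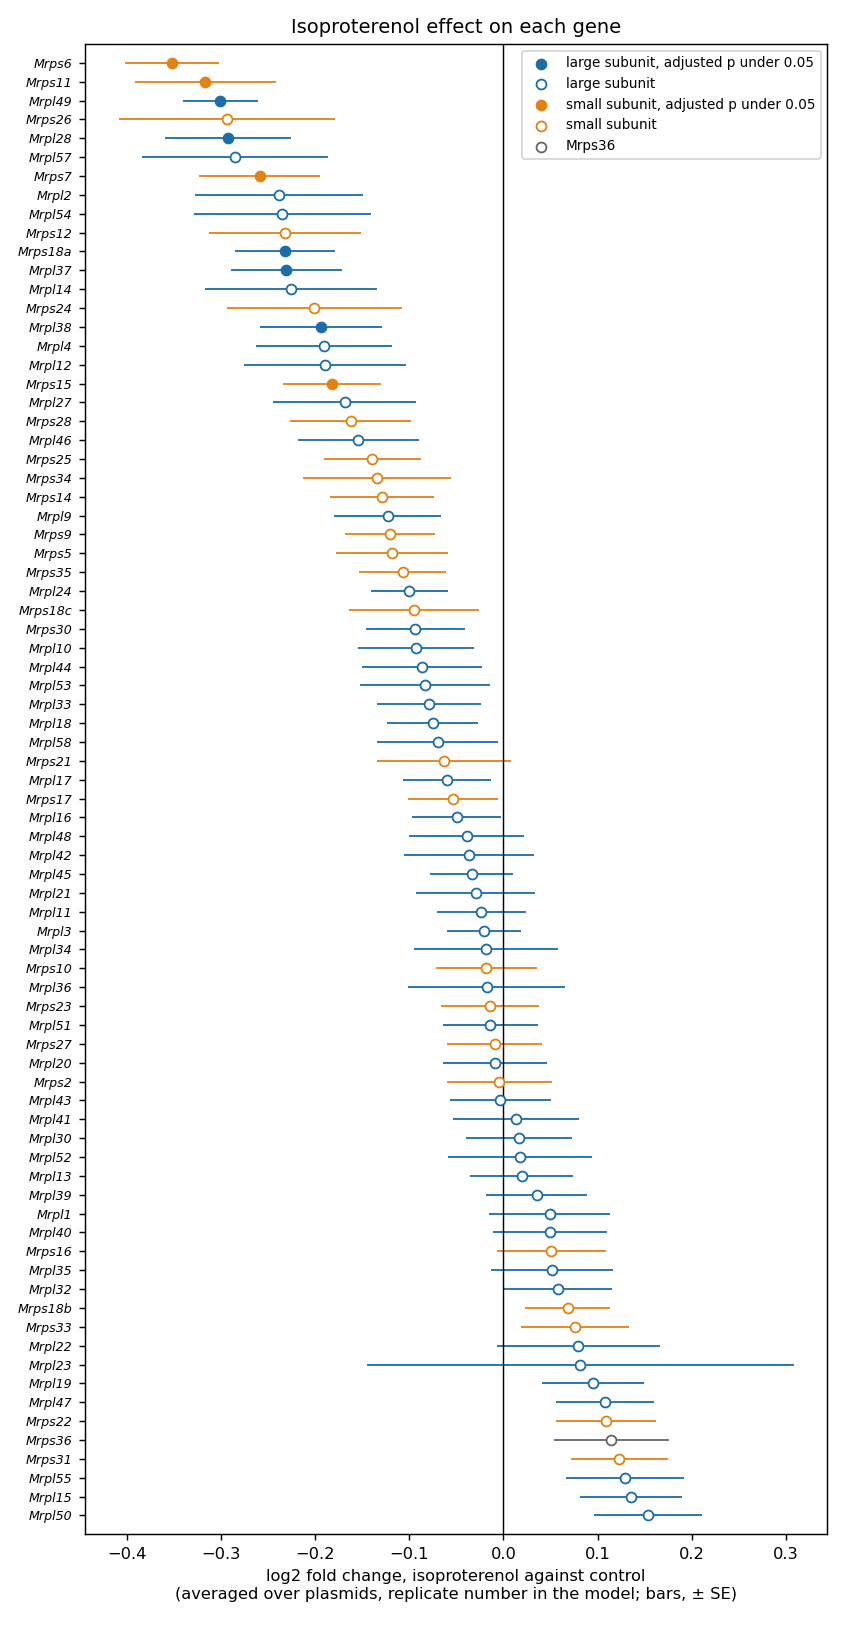
Log2 fold change with isoproterenol for each of the 78 genes, averaged over plasmids, from the edgeR model with replicate number, with bars of 1 SE, colours by subunit and filled points for an adjusted p under 0.05. The values run from -0.35 for *Mrps6* to 0.15 for *Mrpl50*, and the 9 filled points are all negative.

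The isoproterenol effect varied with the base composition of the transcripts. The log2 fold change and the GC content of the longest transcript were compared across the 78 genes, which share their libraries. Without replicate number in the model, Pearson's r was -0.45, against -0.18 over all tested genes. Spearman's rho was -0.43 against -0.27, a smaller gap. With replicate number, r was -0.44 against -0.18 and rho -0.41 against -0.28. Of the 9 calls with replicate number, 6 lay among the 26 genes with the highest GC content (52.5% to 60.4% GC, median log2 fold change -0.17), 3 among the middle 26 (median -0.018) and 0 among the lowest 26 (38.6% to 46.9% GC, median -0.038). No share of all tested genes was computed for these GC ranges, so these counts are not set against a background. After a GC correction, chosen after seeing the data, the same model called 11 genes lower, against 9.90% of all tested genes, among them *Mrpl28*, *Mrpl37*, *Mrpl49*, *Mrps11*, *Mrps6* and *Mrps7* of the 9. Other measures moved with isoproterenol too. The summed level of the 10 adipocyte markers was 26340 ± 5127 CPM in empty ctrl, 20156 ± 4607 in empty iso, 26350 ± 2709 in sgRNA ctrl and 22058 ± 4869 in sgRNA iso (SD, n = 4), with none of the markers at 0 in all libraries. The 6 preadipocyte markers summed to 33.6 ± 26.6, 57.2 ± 31.2, 21.1 ± 14.6 and 38.2 ± 23.3 CPM in the same order, and the 5 macrophage markers to 11.0 ± 2.48, 19.2 ± 3.50, 9.12 ± 3.26 and 18.1 ± 3.77 CPM. The preadipocyte sum was mostly *Ly6a* (2.77 to 81.8 CPM) and the macrophage sum almost wholly *Cd68* (6.29 to 22.3 CPM), while *Ptprc*, *Adgre1*, *Csf1r* and *Itgam* stayed at 0 to 0.644 CPM. The 8 brown adipocyte markers summed to 278 ± 90.7, 338 ± 91.4, 299 ± 88.3 and 406 ± 111 CPM, mostly *Elovl3* and *Ppargc1a*, with *Dio2*, *Cox8b*, *Cox7a1* and *Prdm16* at 0 to 2.17 CPM. Their part in the result was not tested, and in bulk RNA fewer cells of a type and less RNA per cell cannot be told apart. With a covariate for the ribosomal RNA share beside replicate number, 7 of the 9 genes were still called, without *Mrpl38* and *Mrps15* (9.35% of all tested genes were called lower).

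Within empty cells, *Mrpl49* alone was called lower (log2 fold change -0.34, adjusted p = 0.0498, edgeR; 0.433% of all tested genes were called lower), and 6 genes had an unadjusted p under 0.05 (10.1% of all). This call was lost with DESeq2 size factors, without a filter on low counts and with the ribosomal RNA gene left out. With replicate number 7 were called lower, against 5.07% of all genes, and 23 had an unadjusted p under 0.05 (23.7%). The 7 were *Mrps6* (log2 fold change -0.44), *Mrps11* (-0.44), *Mrps12* (-0.42), *Mrpl28* (-0.36), *Mrpl49* (-0.33), *Mrps7* (-0.32) and *Mrps18a* (-0.29). With a covariate for the ribosomal RNA share beside replicate number, only *Mrpl49*, *Mrps6* and *Mrps18a* of these were called, against 3.90% of all genes. *Mrpl49* and *Mrps6* alone were called without replicate 3 (2.65% of all genes) or without replicate 5 (3.55%), and with *Mrps11* and *Mrpl57* without replicate 4 (2.41%). Without replicate 6, 7 genes were called (3.66% of all genes), with *Mrpl12* in place of *Mrps18a*. *Mrps18a* was not called when any 1 of the 4 numbers was left out, nor with the GC correction. Within sgRNA cells, edgeR called 0 genes lower, against 0.319% of all genes (1 gene at an unadjusted p under 0.05, against 8.46%, and 1 called by DESeq2, against 0.807%). With replicate number it called *Mrpl49* (-0.27, adjusted p = 0.00740) and *Mrps6* (-0.26, adjusted p = 0.0301), against 4.12% of all genes, and 9 genes had an unadjusted p under 0.05 (21.7%). The median log2 fold change of the 78 genes was -0.11 in empty cells, but -0.041 without empty ctrl replicate 3, -0.047 without empty iso replicate 6 and -0.214 without empty ctrl replicate 6. It was -0.017 in sgRNA cells, where it ran from -0.061 without sgRNA iso replicate 4 to 0.086 without sgRNA iso replicate 6 and was also positive without sgRNA ctrl replicate 3 (0.016) or 4 (0.0033). The difference between these effects, the interaction of sgRNA and isoproterenol, was called for 0 of the 78 genes with or without replicate number or by DESeq2 (0 of all tested genes in edgeR). At an unadjusted p under 0.05, 0 genes passed without replicate number (0.395% of all) and 1 with it (1.51%), *Mrps12* (0.38, SE 0.16, adjusted p = 1.00 in edgeR). The interaction was positive for 71 of the 78 genes with a median of 0.11, against 52.7% positive and a median of 0.009 over all tested genes. This was not particular to the set. Positive values were also found for 81 of 82 nuclear genes of the respiratory chain and ATP synthase (median 0.15). The same held for 75 of 83 cytosolic ribosomal protein genes (0.089) and 5 of 5 mitochondrial ribosomal proteins with other symbols (0.11). Of the mitochondrial ribosome assembly factors, 16 of 27 were positive (0.009). All 4 groups enter the interaction. Without sgRNA iso replicate 6 or empty iso replicate 6 its median over the 78 genes was 0.191 or 0.026.

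The second comparison asked whether activation of *Gm15551* changed these mRNAs. No gene of the set passed the test. Averaged over treatments, edgeR called 0 of 78 with or without replicate number (0 and 0.586% of all tested genes), and DESeq2 called 0. At an unadjusted p under 0.05, 0 genes passed without replicate number (3.32% of all tested genes) and 6 with it (11.5%). The median log2 fold change was 0.005, 41 of the 78 were positive, and the values ran from -0.25 to 0.27. The most positive were *Mrps26* (0.27, SE 0.22), *Mrpl2* (0.19), *Mrps9* (0.15), *Mrpl14* (0.14) and *Mrpl46* (0.14), and the most negative *Mrpl23* (-0.25, SE 0.30), *Mrpl10* (-0.12), *Mrpl45* (-0.11), *Mrpl22* (-0.11) and *Mrps18b* (-0.10). *Mrps26*, *Mrpl2*, *Mrpl14*, *Mrpl10* and *Mrpl22* changed sign in a model with the ribosomal RNA share, a share that differed between the plasmids as given above. *Mrps9*, a small subunit protein with a bacterial homolog, came closest to the threshold (adjusted p = 0.209, edgeR with replicate number). Its levels in replicates 3 to 6 were 37.1, 35.3, 36.0 and 28.3 CPM in empty ctrl, 37.8, 37.9, 37.9 and 33.9 in sgRNA ctrl, 30.8, 34.6, 31.0 and 25.8 in empty iso and 34.9, 38.9, 37.1 and 28.9 in sgRNA iso. It and *Mrpl24* were higher with sgRNA in all 8 pairs (2 of 78 genes, against 1.01% of all tested genes), while 0 were lower in all 8 (2.07%). *Mrpl49* and *Mrps6*, which fell with isoproterenol, had sgRNA log2 fold changes of -0.05 and -0.06.

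Split by treatment, edgeR called 0 genes with or without replicate number and DESeq2 0, both in control cells (median log2 fold change -0.036) and in stimulated cells (median 0.061). Both medians changed sign when some libraries were left out. Over all tested genes edgeR called 0 and, with replicate number, 0.0380% in control and 0.137% in stimulated cells. At an unadjusted p under 0.05, 0 genes of the set passed in control cells (1.48% of all) and 1 with replicate number (5.73%), and in stimulated cells 0 (1.49%) and 5 (7.29%). In stimulated cells 60 of the 78 genes were positive, against 48.4% of all tested genes. So were 69 of 82 nuclear genes of the respiratory chain and ATP synthase, and 37 of 83 cytosolic ribosomal protein genes. The median of the 78 genes in stimulated cells was -0.014 in a model with the ribosomal RNA share. It rose to 0.142 without the 3 libraries of over 40% ribosomal RNA, a set of libraries chosen after seeing the data.

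The replicate number accounted for more of the variance than either treatment in 74 of the 78 genes, against 81.2% of all tested genes, with 4 levels for the number and 2 for each treatment. The exceptions were *Mrpl49*, *Mrps6*, *Mrpl28* and *Mrpl47*, in which isoproterenol took the larger share (79.6%, 47.1%, 38.1% and 27.4% against 11.3%, 41.3%, 35.8% and 26.2% for the replicate number). The summed level of the 78 genes was 5758, 5136, 5298 and 3952 CPM in replicates 3 to 6 of empty ctrl and 5167, 4938, 4450 and 3781 CPM in empty iso. In sgRNA cells it was 5180, 4974, 4805 and 4457 CPM in ctrl and 5197, 5261, 4774 and 3923 CPM in iso. Replicate 6 was the lowest in each of the 4 groups. The group means in the order above were 5036 ± 769, 4584 ± 613, 4854 ± 306 and 4789 ± 616 CPM (SD, n = 4), and the libraries of the 4 groups overlapped. These SDs include the differences between replicate numbers. By pairs of equal replicate number, the stimulated library was the lower one in 4 of 4 pairs of empty cells and in 2 of 4 pairs of sgRNA cells. The replicate number term, an F test over the 4 numbers in the edgeR model, was called for 64 of the 78 genes, against 54.7% of all tested genes. Without replicate 6 it was called for 13 of the 78, against 29.1% of all genes tested in that model. Of the variance of log2 CPM over the 16 libraries, the replicate number took a median of 64.1%, isoproterenol 6.37%, sgRNA 1.22% and the rest 20.9% per gene, against 46.8%, 6.79%, 2.38% and 31.2% over all tested genes.

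**Figure D4:**
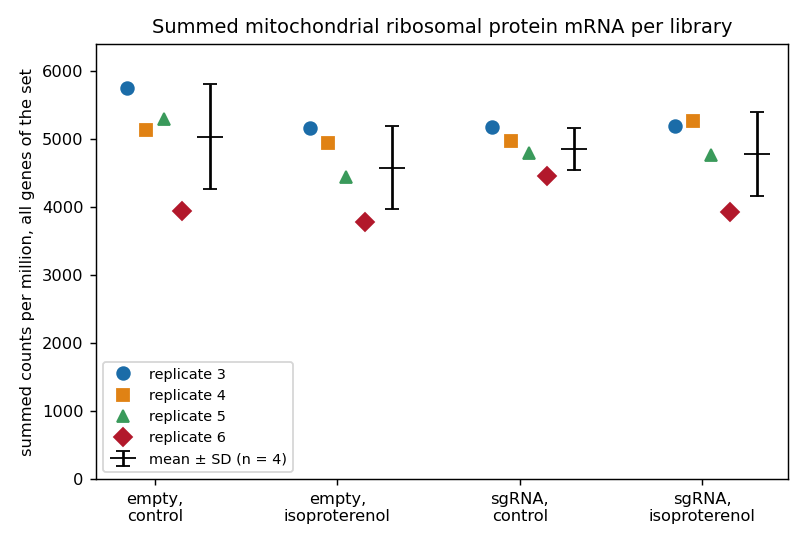
Summed CPM of the 78 genes in each library, by group, with a symbol for each replicate number and the group mean with its SD (n = 4) as a bar. Replicate 6 is the lowest of its group in all 4 groups, at 3952, 3781, 4457 and 3923 CPM.

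The strongest replicate term was that of *Mrpl11*, a large subunit protein at the site where the translation factors bind. Its levels in replicates 3 to 6 were 72.4, 60.8, 54.3 and 42.7 CPM in empty ctrl, 68.9, 61.2, 51.0 and 42.1 in empty iso, 66.1, 61.7, 49.2 and 49.9 in sgRNA ctrl and 66.9, 62.1, 51.7 and 46.3 in sgRNA iso. All libraries of replicate 3 lay above those of replicate 4, and these above those of replicates 5 and 6, which overlapped (F = 31.8, adjusted p = 1.86e-05, edgeR). *Mrpl58*, a peptidyl-tRNA hydrolase built into the large subunit, averaged 46.3, 47.4, 36.5 and 28.6 CPM in replicates 3 to 6, and *Mrps10* 75.3, 78.6, 56.7 and 53.8 CPM. *Mrpl20* averaged 138, 120, 113 and 86.0 CPM and *Mrpl52* 40.2, 40.9, 28.3 and 24.2 CPM. At the other end, *Mrpl47* averaged 43.0, 40.2, 40.9 and 38.7 CPM and its replicate term was not called (adjusted p = 0.359, edgeR).

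Replicate 6 was the lowest of the 4 numbers for 74 of the 78 genes, against 29.5% of all tested genes, and replicate 3 the highest for 43. This number was picked out after its values were seen, so its difference is given as a description. The log2 difference between replicate 6 and the mean of replicates 3 to 5 had a median of -0.34 over the 78 genes and 0.0016 over all tested genes, and ran from -0.87 for *Mrps26* to -0.05 for *Mrps27*. Replicates 3 and 4 together were higher than 5 and 6 together for 76 of the 78 genes, with a median log2 difference of 0.24 (49.6% of all tested genes). *Mrps27*, a pentatricopeptide repeat protein of the small subunit, was 1 of the 4 genes whose lowest number was another one, and averaged 33.7, 34.9, 41.6 and 35.4 CPM in replicates 3 to 6. Over the 16 libraries the median pairwise Pearson's r of log2 CPM was 0.623 among the 78 genes and -0.0015 among all tested genes. *Mrps28* was closest to the mean of the other genes (r = 0.96) and *Mrps27* farthest from it (r = -0.06). The points of these correlations share replicate numbers and libraries. The adipocyte marker sum was 14191 to 22479 CPM in replicate 6 and 18909 to 29974 CPM in the others, and the preadipocyte marker sum 41.5 to 94.3 against 7.63 to 65.9 CPM, and their part in the result was not tested.

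**Figure D5:**
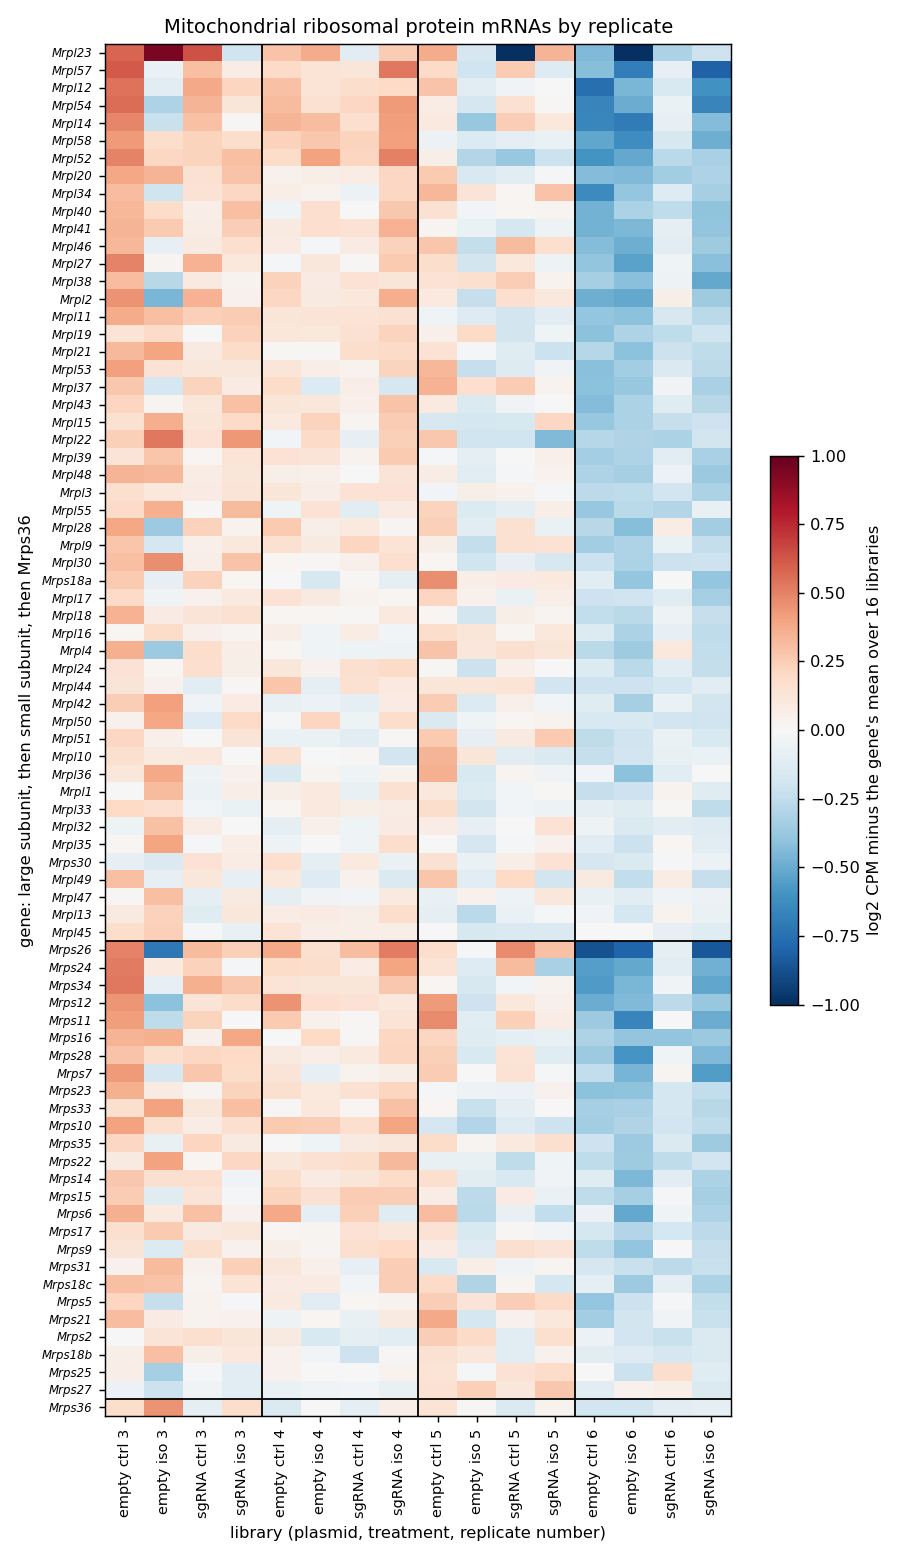
Log2 CPM of each of the 78 genes (vertical axis, by subunit) in each library (horizontal axis, by replicate number), minus the gene's mean over the 16 libraries, on a colour scale that ends at -1 and 1. The 4 libraries of replicate 6 are blue for nearly all genes, and replicate 3 is mostly red.

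Other genes of mitochondrial protein synthesis were described beside the set, and their calls with replicate number stand against 10.4% lower and 10.9% higher over all tested genes. Of the 5 mitochondrial ribosomal proteins with other symbols, such as *Dap3* and *Ptcd3*, 0 were called with isoproterenol in either edgeR model (median log2 fold change -0.042 with replicate number, as below). Of 27 assembly factors, 1 rose and 4 fell with replicate number. The riser was *Fastkd2* (0.29, adjusted p = 0.00168), an RNA-binding factor of large subunit assembly, which was also called without replicate number. Those that fell were *Rbfa* (-0.37), *Tfb1m* (-0.26), *Ngrn* (-0.18) and *Noa1* (-0.17), of which *Rbfa* and *Tfb1m* act on the rRNA of the small subunit. Of 16 translation factors, *Tufm*, the mitochondrial elongation factor Tu, fell (-0.23, adjusted p = 0.00550) and 0 rose. Of 20 aminoacyl-tRNA synthetases and tRNA amidation subunits, 4 fell, among them *Gatb* (-0.32), *Ears2* (-0.30) and *Iars2* (-0.21), and only *Gatb* was called without replicate number (adjusted p = 0.0283, edgeR). None of the 10 genes of mitochondrial DNA transcription and replication and none of the 13 mRNAs that the mitochondrial ribosome translates were called (median of the 13 mRNAs 0.011). The nuclear genes of the respiratory chain and ATP synthase had 21 of 82 lower and 0 higher with replicate number (median -0.11; 0 called without it). The cytosolic ribosomal proteins had 48 of 83 higher and 0 lower (median 0.20; 1 higher without it), whereas the mitochondrial ones had 0 of 78 higher. The counts of the assembly and translation factors lay near the background of all genes. With sgRNA, 0 genes of these lists were called in either model.

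The replicate number term was called for 83 of 83 cytosolic ribosomal protein genes, 73 of 82 respiratory chain genes, 3 of 5 mitochondrial ribosomal proteins with other symbols, 14 of 27 assembly factors, 9 of 16 translation factors, 11 of 20 synthetases, 4 of 10 genes of mitochondrial DNA expression and 6 of 13 mitochondrial mRNAs, against 54.7% of all tested genes. The shares of the lists other than the cytosolic ribosomal proteins and the respiratory chain lay near or below that background. The median log2 difference of replicate 6 was -0.32 for the cytosolic ribosomal proteins and -0.34 for the respiratory chain, beside -0.34 for the mitochondrial ribosomal proteins. It was -0.37 for the 5 mitochondrial ribosomal proteins with other symbols, -0.17 for the genes of mitochondrial DNA expression, -0.20 for the assembly factors, -0.15 for the translation factors, -0.12 for the synthetases and -0.13 for the mitochondrial mRNAs.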

How the data were processed

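The polyA RNA of 16 samples was sequenced as paired-end NEBNext libraries. The authors filtered the reads (cutadapt) and assigned them to GENCODE transcripts of GRCm38 (Salmon); the strand setting, the tool versions and the summation to genes are not given in the sources used here. The deposited values are estimated counts per gene, whole numbers in the file, with no normalization. DESeq2 is named in the submitters' processing notes, and no value of it was used.

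The 78 genes and all lists were chosen with earlier results of these data known. Counts were analysed in R 4.3.3 with edgeR 4.0.16 (filterByExpr with a minimum count of 10 and a total of 15, TMM, quasi-likelihood F test, 4 group means over 16 libraries, two-sided, Benjamini-Hochberg over 13150 genes, call at an adjusted p under 0.05). Levels are CPM on TMM-scaled library sizes, per kilobase of the exon union of GENCODE (GRCm38) where genes are compared. Median biological variation was 18.0%, and 10.0% with replicate number in the model.

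Pairing was checked on all tested genes: libraries of the same replicate number in different groups deviated together in 24 of 24 cases (correlation of deviations from the group means at least 0.224, median 0.410), so each result whose call changes is given with replicate number in the model as well. Libraries of different numbers had a median of -0.215 but reached 0.516, so the ranges overlapped. Over the 78 genes alone, the same number gave -0.026 to 0.770 (median 0.404). Different numbers reached 0.752 there (median -0.116). Named genes were those called in an averaged contrast in either model, the 5 largest rises and falls, the 5 highest and lowest per kilobase, the Mrps18 relatives, *Mrpl12*, *Mrps12*, *Mrps30* and *Mrps36*, and the 5 largest replicate terms; neighbours, *Mrpl16*, *Mrpl24*, *Mrpl35*, *Mrpl42*, *Mrpl47*, *Mrpl57*, *Mrps24*, *Mrps27* and *Mrps28* were added after their values were seen. Alternatives were DESeq2 1.42.0, DESeq2 size factors, other filters, the ribosomal RNA gene left out or its share as a covariate, a GC correction, and leaving out libraries. The share of the 78 genes was 0.286% to 0.633% of all counts (median 0.526%), and Wilson 95% intervals and all depths cover counting error only. The code was tested on simulated counts.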

Additional observations from a re-analysis of the deposited data

Results flagged for a closer look

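In 39 named genes, each group of 4 libraries was examined for 1 library far from the others, by the gap to its nearest neighbour as a share of the group's range (Dixon's ratio). Of 156 groups, 7 exceeded the 95% limit, and chance alone gives about 1 in 20, or 7.8. The low library was replicate 6 in all 7. The gene *Mrps12* had a ratio of 0.961 in empty ctrl (13.8 CPM against 26.4 for the nearest) and of 0.881 in sgRNA ctrl (16.3 against 21.0). *Mrps9* had a ratio of 0.994 in sgRNA ctrl, where the other 3 libraries lay close together (33.9 against 37.8 CPM). In sgRNA iso the ratio was 0.858 for *Mrpl15* (56.6 against 75.0 CPM), 0.841 for *Mrpl34* (53.3 against 77.4), 0.858 for *Mrpl46* (32.1 against 45.8) and 0.844 for *Mrps35* (35.0 against 47.7).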

How the results depend on the processing

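The count of the 78 genes called lower with isoproterenol, averaged over plasmids (1 in the reported model), was 9 with the replicate block, 7 with the block and a covariate for the ribosomal RNA share, 11 with the block and a GC correction (added after seeing the data) and 2 by DESeq2. In empty cells (1) it was 7, 3 and 6 under these block settings in the same order, and 0 with DESeq2 size factors, without a filter on low counts, with the ribosomal RNA gene left out or without the libraries of over 40% ribosomal RNA. In sgRNA cells (0) it was 2, 2 and 2 with the block and 1 by DESeq2. Over all tested genes, the block called 5.07% lower in empty cells (3.90% with the covariate) and 4.12% in sgRNA cells, where DESeq2 called 0.807%. No share over all genes is given for the GC correction in either kind of cell, or for the covariate in sgRNA cells. Those counts are therefore not set against a background. In the other contrasts of treatment or plasmid, the block changed no call of the 78 genes. The median sgRNA effect in stimulated cells (0.061) was -0.014 with that covariate and 0.142 without the libraries of over 40%. The share of the 78 genes in the median library was 0.526% of all counts and 0.660% without the ribosomal RNA gene. With that covariate the sgRNA effect turned sign for *Mrpl14* (-0.122, and -0.064 with the block) and, with the block, for *Mrpl10* (0.048), *Mrpl2* (-0.013), *Mrpl22* (0.073) and *Mrps26* (-0.00812), none called. The cause was not tested.

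Counts after leaving out libraries pool fits with and without the block. The averaged isoproterenol effect had 0 to 13 genes lower and 0 to 1 higher. Without the block, 0 were lower without replicate 3 and 3 without empty ctrl 6, and with the block 8 without replicate 6. In empty cells 0 to 7 were lower and in sgRNA cells 0 to 2. With the block, 2.41% to 3.66% of all tested genes were lower in empty cells when 1 replicate number was left out. The replicate number term was called for 13 to 68 genes, with 29.1% of all genes without replicate 6. For the other counts no share over all genes is given, so they are not set against a background. Median effects ranged from -0.104 to -0.016 (isoproterenol, averaged), -0.214 to -0.041 (empty), -0.061 to 0.086 (sgRNA cells), -0.043 to 0.048 (sgRNA, averaged), -0.156 to 0.029 (control cells), -0.029 to 0.148 (stimulated cells) and 0.026 to 0.191 (interaction). With the block, 5, 7, 7 and 7 of the 9 genes were still called without replicates 3, 4, 5 and 6. *Mrpl28*, *Mrpl49*, *Mrps18a*, *Mrps6* and *Mrps7* were called each time, and *Mrpl38* was lost each time. *Mrps15* was lost without replicate 3, 5 or 6, *Mrpl37* without 3 or 4 and *Mrps11* without 3. *Mrpl49* stayed between -0.33 and -0.28. By the longest transcript, 4 of the 5 highest and 3 of the 5 lowest genes per kilobase were shared with the exon union. Depth limits *Mrpl23* most, at 15 counts in its lowest library.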
